A study of Mus musculus with 12 samples.

Results

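Glul, Oat, Slc1a2, Lhpp, Rhbg, Axin2, Tbx3, Lgr5, Slc13a3 and Cyp2e1 belong to the pericentral programme of the liver, the genes that beta-catenin turns on in hepatocytes next to the central vein. The 10 genes were taken by symbol from a deposited table of 54532 mouse gene IDs, and each symbol matched 1 ID. They were followed in liver RNA of wild-type (WT) C57BL/6J mice, an inbred laboratory strain, in 12 RNA sequencing libraries. The 4 groups of 3 libraries were CD, a diet that the labels do not spell out, HFD, a high-fat diet, and CDDSS and HFDDSS, the same diets with dextran sulfate sodium (DSS, 2%), a polymer used to cause colitis in mice. No label gives the age or sex of the mice or how DSS was given and for how long. Nor do the labels tie each library to a mouse of its own, so a p-value here measures only how far these samples spread, which can be technical. Expression was given as FPKM, fragments per kilobase of gene and M fragments of the library, which can be compared between genes. The FPKM of a library summed to 362445 to 429232, so a level set between libraries also depends on the scaling.

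Hepatocytes differ along the path of the blood from the portal field to the central vein. Endothelial cells of the central vein release Wnt ligands and R-spondins, which stabilise beta-catenin in the hepatocytes nearby, where it acts with TCF/LEF factors on DNA. The innermost layer makes glutamine from ammonia that the portal hepatocytes, which run the urea cycle, have let pass. Glutamine synthetase, the product of Glul, is the classic marker of that layer. In bulk RNA, fewer pericentral cells and less of an RNA in each of them cannot be told apart.

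Depth was 23.4 to 29.4 M fragments per library. Log2 values of 2 libraries of a group correlated at 0.972 to 0.989, and those of libraries of different groups at 0.949 to 0.988. Along the main axis of variation (43.3%), HFD 1, CDDSS 1 and HFDDSS 2 lay between the other untreated and the other DSS libraries. These 3 libraries were kept, and values without them are given where they change a call of one of the 10 genes. The tissue label was checked on 8 hepatocyte markers. Their summed level was 28330 to 52520 FPKM in the 12 libraries. With limma 0 of 8 passed the test in either DSS comparison, and 0 with voom in both. At an unadjusted p under 0.05 there were 0 with DSS on CD and 3 on HFD. Other settings called up to 2 of the 8 on CD and up to 3 on HFD. For the mean of both DSS effects limma called 0 of 8, and other settings up to 4. The 8 markers include Cyp2e1.

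**Figure D1:**
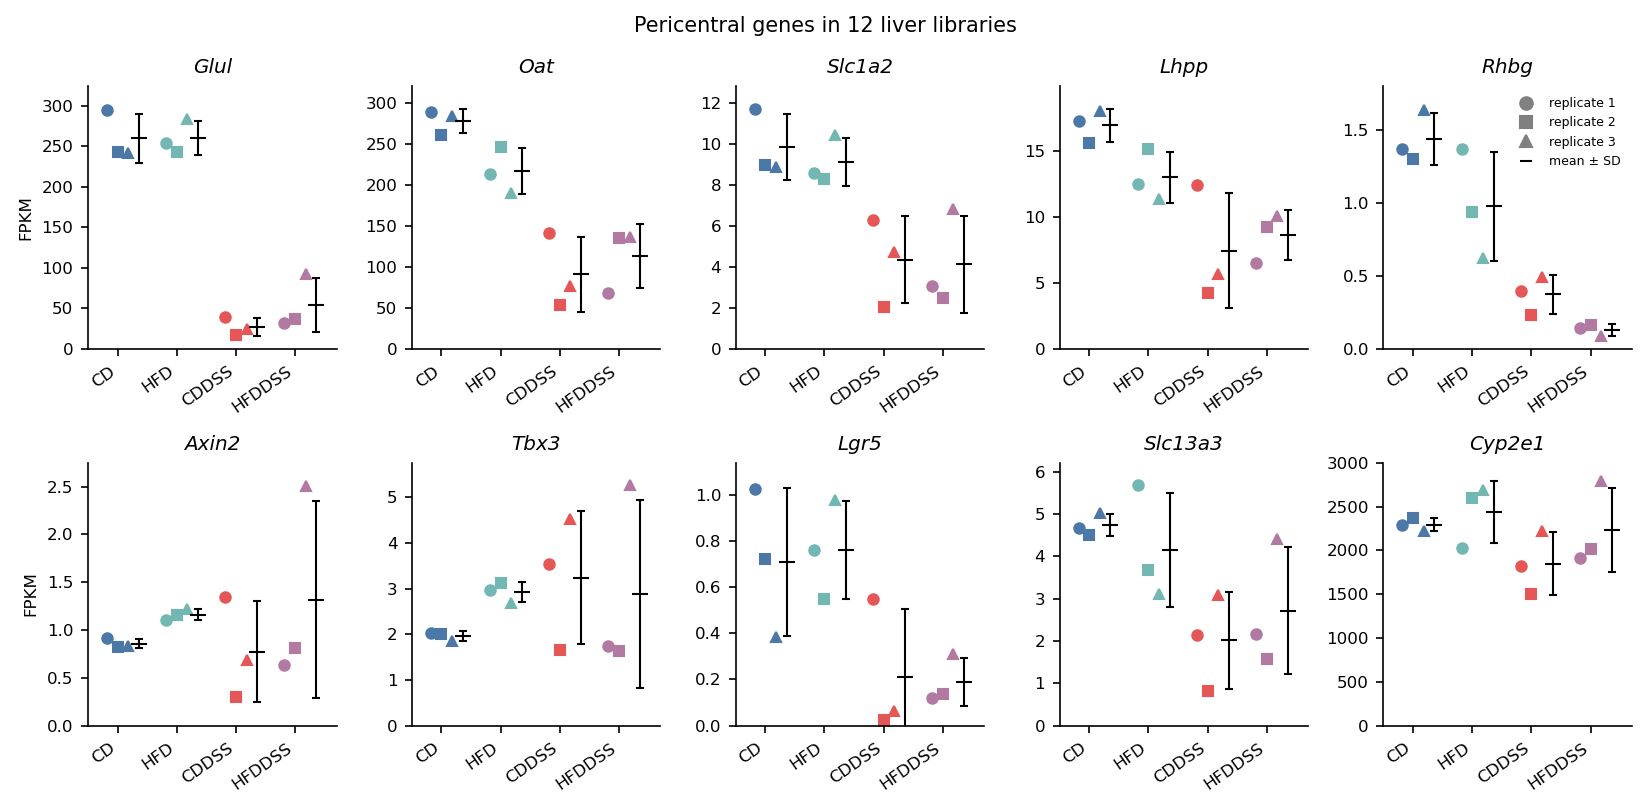
FPKM of the 10 pericentral genes (vertical axes from 0, a scale for each gene) in CD, HFD, CDDSS and HFDDSS; points are libraries, shaped by replicate number, and black bars are mean ± SD (n = 3; bars that would pass below 0 end there). Glul, Oat, Slc1a2 and Rhbg have all 6 DSS libraries below all 6 untreated ones, while Axin2, Tbx3 and Cyp2e1 overlap.

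Without DSS the levels spanned more than 3 orders of magnitude. In CD, Cyp2e1 was highest at 2292 ± 72.3 FPKM (SD, n = 3), followed by Oat at 278.6 ± 14.8 and Glul at 259.7 ± 30.3, whose libraries overlapped. Lhpp (17.0 ± 1.25), Slc1a2 (9.85 ± 1.61), Slc13a3 (4.74 ± 0.265) and Tbx3 (1.96 ± 0.102) followed without overlap between neighbours. Rhbg (1.44 ± 0.178), Axin2 (0.857 ± 0.0472) and Lgr5 (0.71 ± 0.321) were lowest, and Axin2 and Lgr5 overlapped. In each of the 6 DSS libraries Oat was above Glul.

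The promoters of 6 of the 10 genes (Glul, Oat, Slc1a2, Axin2, Slc13a3 and Cyp2e1) were found in RefSeq (GRCm38.p6). The 250 bases before the start site were searched on both strands for the TCF/LEF words CTTTGAT and CTTTGTT as well as CTTTGAA and CTTTGTA, which share their first 5 letters. Of the 6 windows 2 held a word, against 4874 of 32851 RefSeq windows of the same length (14.8%). Shown are Glul, with the deepest fall of these 6 genes, the 2 with a word and the Wnt feedback gene Axin2. They are printed 5′ to 3′ on the strand of the gene, with the word in capitals. The windows are chr1:153899679-153899928 on the plus strand for Glul, chr2:102706188-102706437 on the plus strand for Slc1a2, chr11:108920099-108920348 on the plus strand for Axin2 and chr7:140763569-140763818 on the plus strand for Cyp2e1.
Glul: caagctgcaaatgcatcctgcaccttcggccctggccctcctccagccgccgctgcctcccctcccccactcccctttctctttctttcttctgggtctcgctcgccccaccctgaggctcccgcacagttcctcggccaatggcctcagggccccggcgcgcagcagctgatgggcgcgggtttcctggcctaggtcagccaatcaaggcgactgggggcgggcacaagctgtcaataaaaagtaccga
Slc1a2: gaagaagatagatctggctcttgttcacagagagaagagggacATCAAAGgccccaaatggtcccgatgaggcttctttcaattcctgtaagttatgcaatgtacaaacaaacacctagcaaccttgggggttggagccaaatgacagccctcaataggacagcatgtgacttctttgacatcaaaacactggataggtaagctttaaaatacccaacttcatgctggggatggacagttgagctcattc
Axin2: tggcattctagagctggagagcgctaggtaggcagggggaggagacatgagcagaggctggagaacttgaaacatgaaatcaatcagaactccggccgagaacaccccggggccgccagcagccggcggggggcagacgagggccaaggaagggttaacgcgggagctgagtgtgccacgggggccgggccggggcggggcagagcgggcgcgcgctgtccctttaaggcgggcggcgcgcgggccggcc
Cyp2e1: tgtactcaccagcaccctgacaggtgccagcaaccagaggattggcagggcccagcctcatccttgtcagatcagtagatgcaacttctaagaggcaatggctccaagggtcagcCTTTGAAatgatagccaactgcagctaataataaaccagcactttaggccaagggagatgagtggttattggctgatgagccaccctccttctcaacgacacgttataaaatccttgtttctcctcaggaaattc
The word in Slc1a2 lies 207 bases before the RefSeq start, in a window inside the longer GENCODE gene, and reads as CTTTGAT on the other strand. That of Cyp2e1 lies 135 bases before the start. The Glul and Axin2 windows, with 64.8% and 69.2% G and C, held none of these words. A match describes these letters only, and the 2 genes with a word differed in their values below: Slc1a2 fell over both diets and Cyp2e1 did not pass the test.

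Glul (ENSMUSG00000026473, chr1:153899944-153909723 in mm10, plus strand) encodes glutamine synthetase, which joins ammonia to glutamate. It had 295, 243 and 242 FPKM in CD 1 to 3 and 253, 243 and 284 in HFD 1 to 3. With DSS it had 38.9, 17.6 and 25.0 in CDDSS 1 to 3 and 32.2, 36.9 and 92.0 in HFDDSS 1 to 3. The groups did not overlap, and the highest DSS library (HFDDSS 3) was far below the lowest untreated one. On CD, Glul fell 9.67-fold on the FPKM + 1 scale (log2 fold change −3.27 with an SE of 0.35, limma adjusted p = 0.00272), the 5th smallest p of the 10806 genes tested. On HFD it fell 5.32-fold (−2.41, SE 0.35, limma adjusted p = 0.011), a call lost without HFD 2 (limma adjusted p = 0.0626). Glul was at 15.0, 6.79 and 9.63% of the CD mean in CDDSS 1 to 3, and at 12.4, 14.2 and 35.4% of the HFD mean in HFDDSS 1 to 3. Its 1445 to 24011 fragments per library make counting error small against these differences. Of its exon bases, 3.49% overlap Teddm2 on the opposite strand, which was at 0.212 FPKM or less.

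Rhbg (chr3:88242874-88254709, minus strand) encodes an ammonia transporter of the hepatocyte membrane. Its levels were low: 1.37, 1.30 and 1.64 FPKM in CD 1 to 3, 1.37, 0.937 and 0.623 in HFD, 0.398, 0.230 and 0.496 in CDDSS, and 0.143, 0.167 and 0.0864 in HFDDSS. All DSS libraries lay below all untreated ones, and all HFDDSS libraries lay below all CDDSS libraries. It fell with DSS on CD (log2 fold change −0.83, SE 0.14, limma adjusted p = 0.0138) and on HFD (−0.79, SE 0.14, limma adjusted p = 0.0168). These folds are of FPKM + 1 and understate a gene near 1 FPKM. On the FPKM scale, 16.0 to 34.5% of the CD mean was left in CDDSS and 8.85 to 17.1% of the HFD mean in HFDDSS. The values rest on 4 to 83 fragments per library. Rhbg passed the filter of 1 FPKM in 3 libraries only through untreated libraries, where it was high. The call on CD was lost without CD 3 (limma adjusted p = 0.0525) or CDDSS 2 (0.0588), and that on HFD without HFD 2 (0.0741), HFDDSS 1 (0.0678) or HFDDSS 3 (0.0695), and in a fit of the compared groups alone (0.0661). Rhbg shares 61.4% of its exon bases with Gm38392 on the same strand. Gm38392 was listed at 0 in all libraries but CD 3, where it had 1 fragment. How reads of the shared bases were counted is not given, so the level of Rhbg is uncertain.

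Slc1a2 (chr2:102658659-102790784, plus strand) encodes a glutamate transporter that brings the substrate of glutamine synthetase into the cell. It had 11.7, 8.95 and 8.88 FPKM in CD 1 to 3, 8.58, 8.29 and 10.4 in HFD, 6.27, 2.07 and 4.71 in CDDSS, and 3.07, 2.47 and 6.83 in HFDDSS. Every DSS library was below every untreated one, with CDDSS 1 and HFDDSS 3 the closest to them. Neither diet alone gave a call (log2 fold change −1.10 on CD, limma adjusted p = 0.0808, and −1.07 on HFD, 0.0797). The fall on CD passed the test without CDDSS 1 (limma adjusted p = 0.027), without the 3 intermediate libraries (−1.36, 0.0211) and with library weights (−1.32, 0.0114). The mean of both DSS effects was −1.08 (SE 0.23, limma adjusted p = 0.00932), a fall of 2.12-fold.

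Oat (chr7:132557478-132576398, minus strand) encodes ornithine aminotransferase, a mitochondrial enzyme that turns ornithine into the precursor of glutamate. It had 289, 262 and 284 FPKM in CD 1 to 3, 213, 247 and 191 in HFD, 142, 53.5 and 77.4 in CDDSS, and 68.6, 136 and 137 in HFDDSS. The DSS libraries lay below the untreated ones on each diet, and the 3 HFD libraries lay below the 3 CD libraries. On CD it fell 3.29-fold (log2 fold change −1.72, SE 0.33, limma adjusted p = 0.0194). That call was lost without CD 1 (0.0552), CD 2 (0.0684), CD 3 (0.0634), CDDSS 2 (0.0656) or CDDSS 3 (0.0838), and with no filter on low values (0.0647). On HFD the value was −0.99 (limma adjusted p = 0.101), which missed the threshold. It passed without the 3 intermediate libraries (−1.15, limma adjusted p = 0.0303) and with library weights (−0.94, 0.0272).

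Lhpp (chr7:132610638-132706420, plus strand) encodes a phosphatase that acts on phosphohistidine, and its gene lies 34.2 kb from Oat. It had 17.3, 15.6 and 18.0 FPKM in CD 1 to 3, 12.5, 15.2 and 11.4 in HFD, 12.4, 4.23 and 5.69 in CDDSS, and 6.49, 9.22 and 10.1 in HFDDSS. The groups did not overlap on either diet, but CDDSS 1 reached the level of the HFD libraries. On CD, Lhpp fell 2.31-fold (log2 fold change −1.21, SE 0.28, limma adjusted p = 0.0382), a call lost without CD 1 (0.0882), CD 2 (0.105), CD 3 (0.112), CDDSS 2 (0.113) or CDDSS 3 (0.149). It was also lost with the replicate number as a block (0.0702), TPM scaling (0.0574), no filter (0.108) and a fit of the compared groups alone (0.0944). On HFD the value was −0.55 (limma adjusted p = 0.259). Like Oat, Lhpp was lower in all 3 HFD than in all 3 CD libraries, without passing the test (−0.37, limma adjusted p = 0.902).

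Slc13a3 (chr2:165405028-165473230, minus strand) encodes a sodium-coupled carrier of dicarboxylates such as succinate. It had 4.68, 4.51 and 5.03 FPKM in CD 1 to 3, 5.67, 3.66 and 3.11 in HFD, 2.14, 0.809 and 3.09 in CDDSS, and 2.16, 1.57 and 4.41 in HFDDSS. On CD the groups did not overlap, and on HFD they did, since HFDDSS 3 was above HFD 2 and 3. Neither diet alone gave a call (log2 fold change −1.01, limma adjusted p = 0.0906, and −0.51, 0.346), though with library weights that on CD passed (−1.17, 0.0165). The mean DSS effect passed the test by little (−0.76, SE 0.22, limma adjusted p = 0.0344). This call was lost without CD 1 (0.0599), CD 2 (0.0628), CD 3 (0.0674), HFD 1 (0.0645), HFD 2 (0.062), CDDSS 2 (0.0653), HFDDSS 1 (0.0792) or HFDDSS 2 (0.0602), and without HFD 1, CDDSS 1 and HFDDSS 2 together (0.103) or with no filter (0.0977).

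Cyp2e1 (chr7:140763739-140774987, plus strand) encodes the cytochrome P450 that oxidises ethanol and paracetamol, and it is expressed in a wider pericentral band than Glul. It had 2293, 2364 and 2219 FPKM in CD 1 to 3, 2032, 2593 and 2691 in HFD, 1823, 1503 and 2219 in CDDSS, and 1911, 2012 and 2787 in HFDDSS. The groups overlapped on both diets, and HFDDSS 3 was the highest of the 12 libraries. Its log2 fold change with DSS was −0.33 on CD (95% interval −0.74 to 0.083, limma adjusted p = 0.321) and −0.13 on HFD (−0.55 to 0.28, limma adjusted p = 0.709). The mean DSS effect was −0.23, with an interval of −0.52 to 0.059 (limma adjusted p = 0.24).

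Axin2 (chr11:108920349-108950783, plus strand) encodes a scaffold of the complex that degrades beta-catenin, and as a beta-catenin target it feeds back on the pathway. It had 0.911, 0.826 and 0.833 FPKM in CD 1 to 3, 1.10, 1.15 and 1.22 in HFD, 1.35, 0.295 and 0.683 in CDDSS, and 0.637, 0.810 and 2.51 in HFDDSS. Without DSS the HFD libraries were all above the CD libraries, but with DSS the values lay on both sides of the untreated ones. The log2 fold change with DSS was −0.11 on CD (95% interval −0.69 to 0.47, limma adjusted p = 0.855) and 0.016 on HFD (−0.57 to 0.60, limma adjusted p = 0.982). Its sign on HFD turned with a pseudocount of 0.1 FPKM (−0.062), quantile normalisation (−0.0085), voom (−0.084), and without HFD 1 (−0.0019) or HFDDSS 3 (−0.33). On CD it turned without CDDSS 2 (0.098).

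Tbx3 (chr5:119670669-119684724, plus strand) encodes a T-box transcription factor. It had 2.03, 2.01 and 1.84 FPKM in CD 1 to 3, 2.96, 3.13 and 2.69 in HFD, 3.54, 1.65 and 4.53 in CDDSS, and 1.73, 1.64 and 5.26 in HFDDSS. As for Axin2, HFD was above CD without overlap, and 3 DSS libraries (CDDSS 1, CDDSS 3 and HFDDSS 3) were above all untreated ones while the other 3 were below all untreated ones. Its log2 fold change with DSS was 0.46 on CD (95% interval −0.24 to 1.15, limma adjusted p = 0.421) and −0.14 on HFD (−0.83 to 0.55, limma adjusted p = 0.832). The sign on HFD turned with library weights (0.19), without HFDDSS 1 (0.052) or HFDDSS 2 (0.078), and without the 3 intermediate libraries (0.085). Tbx3os1, an antisense RNA that overlaps 1.74% of its exon bases, was at 0.374 to 1.27 FPKM in the untreated and 0.0128 to 0.383 in the DSS libraries. No source used here says whether counting was by strand, so reads within that overlap cannot be told apart.

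Lgr5 (chr10:115450311-115587780, minus strand) encodes a receptor for R-spondins. It had 1.03, 0.721 and 0.384 FPKM in CD 1 to 3, 0.76, 0.551 and 0.977 in HFD, 0.549, 0.0237 and 0.0610 in CDDSS, and 0.121, 0.137 and 0.310 in HFDDSS. On HFD every DSS library was below every untreated one, and on CD the groups overlapped because CDDSS 1 was above CD 3. Lgr5 was the only one of the 10 genes below the filter of 1 FPKM in 3 libraries, and its values rest on 6 to 258 fragments. With no filter, its log2 fold change of FPKM + 1 was −0.51 on CD (limma adjusted p = 0.256), −0.56 on HFD (0.197) and −0.54 as the mean of both (0.0414).

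**Figure D2:**
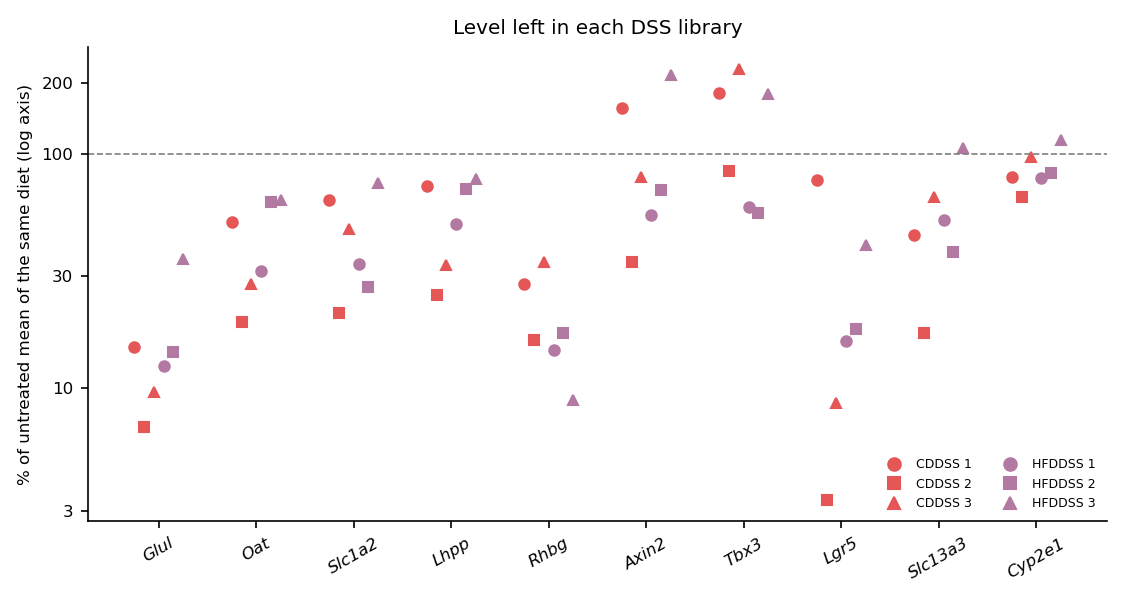
Level of each gene in the 6 DSS libraries as a percentage of the untreated mean of the same diet (vertical log axis; the dashed line is 100%). Glul lies between 6.79 and 35.4% in all 6 libraries, while Axin2 spans 34.4 to 216%.

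With DSS on CD, 4 of the 9 tested members fell (Glul, Oat, Lhpp and Rhbg) and 0 rose. Over all 10806 genes tested, 2.79% were called lower and 4.8% in either direction. The median log2 fold change of the 9 was −1.01, against −0.0071 over all genes. The comparison is a description, since the genes were chosen with results of these libraries known, and Rhbg passed the filter only through untreated libraries. Groups did not overlap for 6 of the 10 (Glul, Oat, Slc1a2, Lhpp, Rhbg and Slc13a3, all lower), a pattern that 14.4% of the tested genes showed.

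With DSS on HFD, 2 of the 9 fell (Glul and Rhbg) and 0 rose, against 3.1% of all tested genes called lower and 4.83% in either direction. The median of the 9 was −0.55, against −0.011 over all genes. Glul, Oat, Slc1a2, Lhpp, Rhbg and Lgr5, again 6 of 10, were lower in every DSS library than in every HFD library. So were 14.7% of the tested genes, which do not include Lgr5. Glul and Rhbg passed the test on both diets, but Rhbg passed the filter only through untreated libraries.

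The mean of both DSS effects, which uses the same libraries as each of them, called 6 of the 9 lower: Glul (−2.84, limma adjusted p = 0.000209), Oat (−1.35, 0.00398), Slc1a2 (−1.08, 0.00932), Lhpp (−0.88, 0.0119), Rhbg (−0.81, 0.00104) and Slc13a3 (−0.76, 0.0344). Of all tested genes, 11.2% were called lower, 8.72% higher and 20% in either direction. All but Slc13a3 kept the call in each of the 12 fits that left out 1 library. Rhbg had passed the filter only through untreated libraries. Only Glul, Oat, Slc1a2 and Rhbg had all 6 DSS libraries below all 6 untreated ones, which 3.85% of tested genes did, while 2.74% were higher without overlap. These non-overlaps were the same under TPM and median-of-ratios scaling. Over all genes the balance of calls was less stable: 302 of 519 calls on CD were lower, whereas under TPM scaling 61.8% of 400 calls were higher. On HFD 335 of 522 were lower, and under TPM scaling 66.8% of 371 were higher. For the mean effect, 1215 of 2157 calls were lower, and under TPM scaling 58.2% of 1763 were higher.

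**Figure D3:**
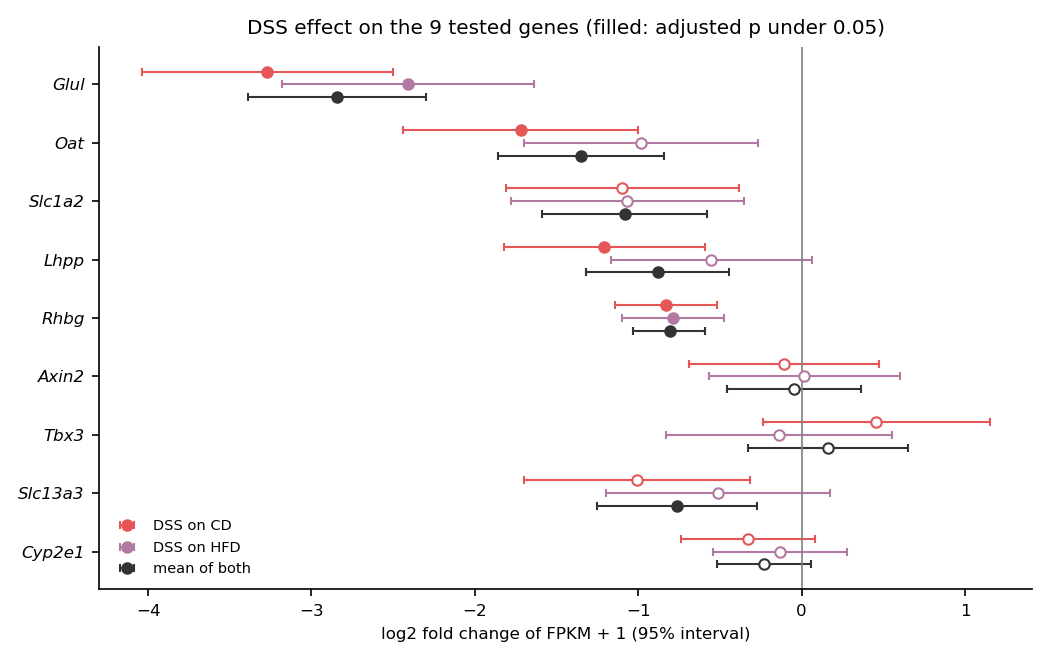
Log2 fold change of FPKM + 1 with DSS on CD, on HFD and as the mean of both, for the 9 tested genes, with 95% intervals; filled points have a limma adjusted p under 0.05. On this scale Glul has the lowest value in all 3, and Axin2 and Tbx3 lie around 0. Rhbg has the narrowest interval, but the added 1 FPKM compresses its values, which rest on 4 to 83 fragments.

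The diet gave no call among these genes. For HFD against CD, limma called 0 of 9 (1 of 9, Rhbg, at an unadjusted p under 0.05, and 0 with voom), against 0.00925% of all tested genes, which is 1 gene. Oat and Lhpp were lower in HFD without overlap, against 6.54% of tested genes, and Axin2 and Tbx3 were higher without overlap, against 6.58%. Glul was at 259.7 ± 30.3 in CD and 259.9 ± 21.4 FPKM in HFD (SD, n = 3), a log2 fold change of 0.0042 with a 95% interval of −0.77 to 0.78, whose sign turned under TPM, median-of-ratios and quantile scaling. For HFDDSS against CDDSS, limma called 0 of 9 (1, Glul, at an unadjusted p under 0.05, and 0 with voom), against 0.102% of all genes (0.0648% lower and 0.037% higher). Only Rhbg did not overlap, being lower in HFDDSS, as 8.97% of tested genes were, while 7.53% were higher without overlap.

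The fall of Glul was 9.67-fold on CD and 5.32-fold on HFD, and the difference of the DSS effects, tested itself, was 0.86 on the log2 scale with a 95% interval of −0.23 to 1.95 (limma adjusted p = 1). For Oat it was 0.73 (−0.28 to 1.75) and for Lhpp 0.65 (−0.22 to 1.52). The difference was called for 0 of the 9 genes with limma (0 at an unadjusted p under 0.05, and 0 with voom), against 0.00925% of all genes.

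The DSS libraries varied more among themselves than the untreated ones. The coefficient of variation (SD over mean) was 11.7% in CD and 8.23% in HFD for Glul, and 39.7% in CDDSS and 61.9% in HFDDSS. For Axin2 it was 5.51 and 4.85% without DSS and 68.6 and 78.4% with it, and for Tbx3 5.22 and 7.56% against 45.1 and 71.7%. In 9 of the 10 genes, all but Rhbg, both DSS groups had a larger coefficient than both untreated groups. The share of all tested genes with this pattern was not computed. The DSS libraries also spread along the main axis of variation over all tested genes. There CDDSS lay at −4.75 to 21.8 and HFDDSS at 7.64 to 30.9, against −20.1 to −19.3 in CD and −21.7 to −2.9 in HFD. CDDSS 2 was the lowest of the 6 DSS libraries for 8 of the 10 genes, and HFDDSS 3 was the highest for 6, with CDDSS 1 highest for 3.

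**Figure D4:**
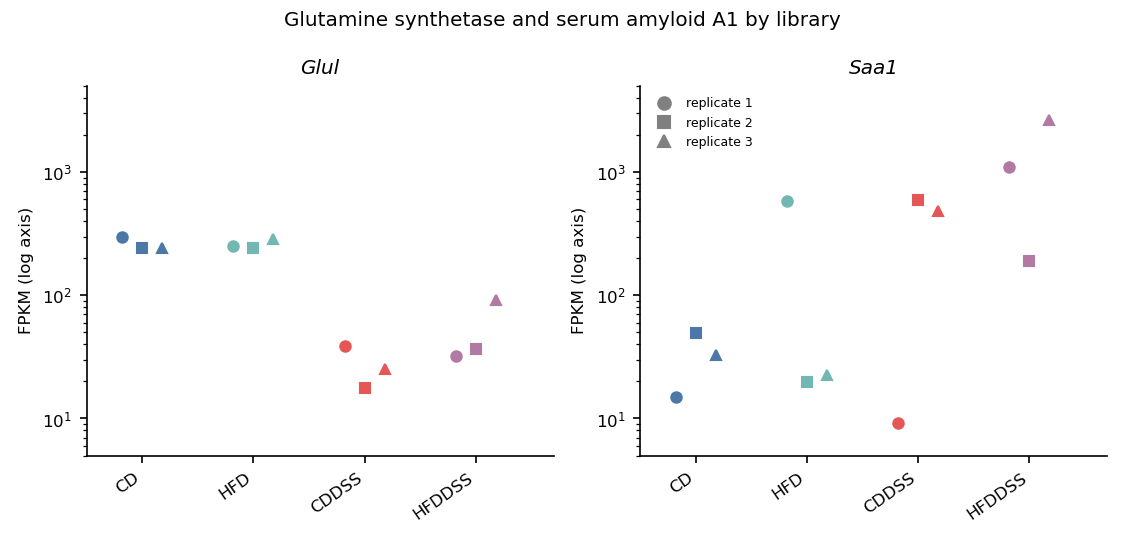
FPKM of Glul (left) and the acute phase gene Saa1 (right) in each library, on log axes of the same range; points are shaped by replicate number. Glul separates the DSS from the untreated libraries, while Saa1 is high in untreated HFD 1 and lowest of all in CDDSS 1.

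The acute phase gene Saa1, which encodes serum amyloid A1, did not follow Glul library by library. It had 15.0, 49.2 and 32.8 FPKM in CD 1 to 3, 579, 19.9 and 22.4 in HFD, 9.14, 595 and 483 in CDDSS, and 1104, 191 and 2670 in HFDDSS. CDDSS 1 had the lowest Saa1 of all 12 libraries with Glul at 15.0% of the CD mean. HFD 1 had Saa1 above that of CDDSS 3 with Glul at 253 FPKM, between HFD 2 and HFD 3. HFDDSS 3 had the highest Saa1 and also the highest level in its group of 9 of the 10 genes, all but Rhbg. Of the 21 acute phase genes, 16 rose and 1 (Hamp, the iron hormone hepcidin) fell in the mean DSS effect. Over all tested genes 8.72% were called higher and 11.2% lower. Saa1 was among the 4 acute phase genes that were not called, so it does not stand for the list. Socs3, of the same list, kept its call as higher in all 12 fits that left out 1 library (limma adjusted p = 0.000331 to 0.00231). The call of Hamp was lost in 6 of the fits that left out 1 library: CD 3 (limma adjusted p = 0.0659), HFD 2 (0.0572), HFD 3 (0.0574), CDDSS 2 (0.0564), CDDSS 3 (0.0565) and HFDDSS 1 (0.0687). The part of the acute phase in the fall of the pericentral genes was not tested.

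The Wnt pathway above these genes was followed in lists of its ligands, receptors, signal carriers and DNA-binding partners. In the mean DSS effect 20% of all tested genes were called, 11.2% lower and 8.72% higher, and the counts below are to be read against these shares. Of 9 ligands and R-spondins only Wnt2 and Rspo3 passed the filter, and limma called 0 of these 2 in the mean DSS effect (1, Wnt2, at an unadjusted p under 0.05, and 0 with voom). Wnt2 was at 1.63 to 2.14 FPKM in the untreated and 1.84 to 3.05 in the DSS libraries, and Rspo3, the main R-spondin of the central vein, at 1.14 to 2.09 and 1.46 to 2.07. Wnt9b stayed under the filter, at 0.138 to 0.506 FPKM without and 0.255 to 0.601 with DSS. Rspo2 and Rspo4 were listed at 0 in all 12 libraries.

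Of 21 receptors and surface regulators, 14 were tested, and in the mean DSS effect 3 fell and 1 rose. The Wnt receptor genes Fzd8 (log2 fold change −0.73, limma adjusted p = 0.00263) and Fzd6 (−0.33, 0.0157) fell, as did Rnf43 (−0.54, 0.0336), which encodes a ubiquitin ligase that removes Wnt receptors from the surface. Dkk3 rose (0.54, limma adjusted p = 0.00609). The Rnf43 call was lost without CD 1 (0.0519), CD 3 (0.0748), HFD 2 (0.0639), HFD 3 (0.0691), CDDSS 1 (0.0503), CDDSS 2 (0.0779), HFDDSS 1 (0.0821) or HFDDSS 2 (0.058), and its log2 fold change was −0.19 on CD and −0.89 on HFD. Fzd8 was at least 2.96 FPKM in the untreated and at most 2.77 in the DSS libraries, without overlap. The R-spondin receptor gene Lgr4 (11.2 to 15.6 FPKM over the 12 libraries), the co-receptor gene Lrp6 (6.61 to 9.76), Fzd4 (1.93 to 4.30) and Znrf3 (0.825 to 1.90) did not pass the test.

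Beta-catenin itself is encoded by Ctnnb1, whose RNA was at 39.2 to 47.9 FPKM in the 12 libraries. Its mean DSS effect was 0.025 on the log2 scale, with a 95% interval of −0.11 to 0.16 (limma adjusted p = 0.811). RNA levels do not measure the stability or the place of the protein. Of the 14 tested signal carriers, 1 rose in the mean DSS effect (Dvl3, 0.22, limma adjusted p = 0.0321) and 0 fell. The Dvl3 call was lost without CD 1 (0.0694), CD 2 (0.0722), HFD 1 (0.0533), HFD 2 (0.0675), CDDSS 3 (0.0769), HFDDSS 1 (0.0783) or HFDDSS 3 (0.0727). Apc (1.75 to 3.25 FPKM) and Axin1 (6.55 to 8.71), both of the degradation complex, did not pass. Of the 11 tested TCF/LEF factors and co-factors, Pygo2, which links beta-catenin to chromatin, rose (0.35, limma adjusted p = 0.00475). Tcf7l2, the main such factor of hepatocytes, was at 1.23 to 1.77 FPKM in the untreated and at most 1.29 in the DSS libraries (−0.17, limma adjusted p = 0.0876).

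Beta-catenin targets that are not particular to the liver lobule moved in both directions. Of 13 listed, 8 were tested, and in the mean DSS effect Rnf43 fell while Ccnd1, which encodes cyclin D1 (0.75, limma adjusted p = 0.0181), and Cd44, a hyaluronan receptor gene (0.66, 0.00609), rose. The feedback inhibitor gene Notum was at 7.35 to 8.83 FPKM in the untreated and 5.31 to 9.59 in the DSS libraries, and Nkd1 at 1.03 to 1.77 and 1.08 to 1.23. Neither passed the test (limma adjusted p = 0.705 and 0.0804).

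**Figure D5:**
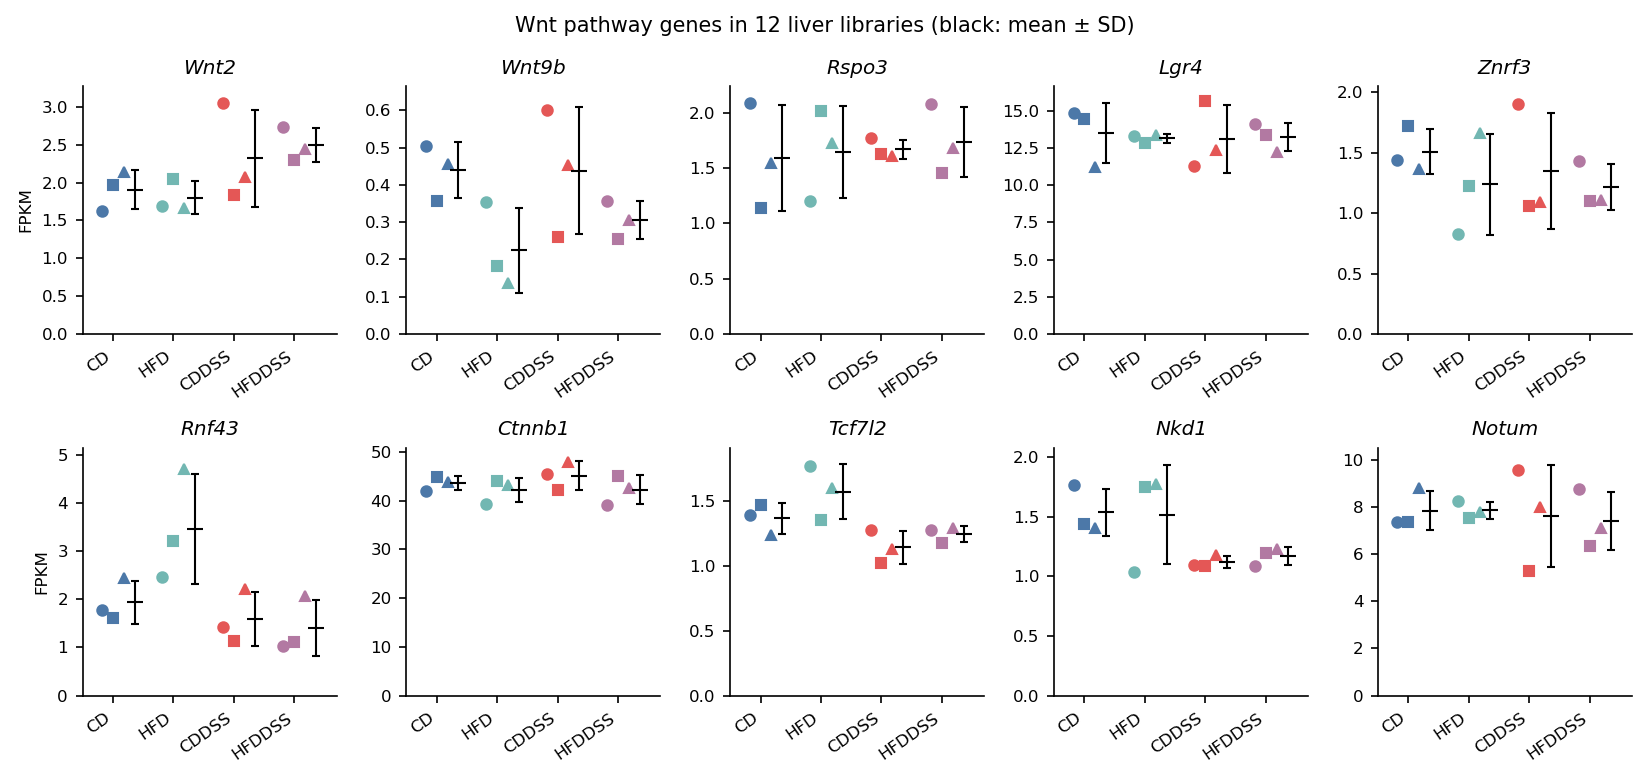
FPKM of 10 Wnt pathway genes (vertical axes from 0, a scale for each gene) in the 4 groups; points are libraries, circles, squares and triangles for replicates 1, 2 and 3, and black bars are mean ± SD (n = 3). Ctnnb1 stays between 39.2 and 47.9 FPKM, and Wnt9b is under 1 FPKM in all libraries.

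Of 28 other pericentral genes, 27 were tested, and in the mean DSS effect 14 fell and 0 rose, against 11.2% lower and 8.72% higher over all tested genes. Most encode enzymes of drug and bile acid metabolism. Among the called genes the largest changes were those of Cyp2a5 (log2 fold change −2.91), the bile acid enzyme gene Cyp7a1 (−1.93), the caffeine-oxidising Cyp1a2 (−1.75), the glutathione transferase genes Gstm3 (−1.66) and Gstm2 (−1.46), and Lect2, a secreted hepatocyte protein gene (−1.08). Cyp7a1 fell on CD (−3.83, limma adjusted p = 0.0159), with 15.6 to 46.6 FPKM in CD and 0.379 to 2.37 in CDDSS, and this call was lost without CD 3 (0.059), CDDSS 2 (0.0636) or CDDSS 3 (0.0698). On HFD its value was −0.022 (limma adjusted p = 0.99), at 4.92, 6.42 and 13.3 FPKM in HFD 1 to 3 and 14.1, 1.44 and 15.3 in HFDDSS. Cyp1a2 had 373, 363 and 357 FPKM in CD 1 to 3, 343, 329 and 351 in HFD, 219, 108 and 140 in CDDSS, and 30.4, 152 and 81.8 in HFDDSS, so that all DSS libraries lay below all untreated ones. Cyp2a5 was at 77.8 to 98.2 FPKM in CD and 38.2 to 53.0 in HFD, and had 55.9 FPKM in CDDSS 1, 13.1 and 15.4 in CDDSS 2 and 3, and 1.25, 3.38 and 1.78 in HFDDSS. The difference of HFDDSS from CDDSS for Cyp2a5 was −2.97 (limma adjusted p = 0.0303) and for Cyp3a11 −2.03 (0.0371), the only genes of the list called between both DSS groups. The Cyp2a5 call was lost without CDDSS 3 (0.0663), HFDDSS 1 (0.109) or HFDDSS 3 (0.151), with the replicate number as a block (0.0743), voom (0.0721), no filter (0.16) and a fit of both groups alone (0.213). The Cyp3a11 call was lost without CDDSS 1 (0.0673), CDDSS 2 (0.0719), HFDDSS 1 (0.109) or HFDDSS 3 (0.16), and with the block (0.0583), TPM (0.0607) and quantile (0.0538) scaling, no filter (0.16) and a fit of both groups alone (0.236). Reads of the Gstm, Cyp2a, Cyp2c and Cyp3a genes, which have near-identical relatives, may have been split among them. The Gstm3 call was lost without CD 1 (0.0713), CD 2 (0.0639), HFD 1 (0.0596), HFD 2 (0.0608), HFD 3 (0.0572), CDDSS 2 (0.0757), CDDSS 3 (0.0808), HFDDSS 1 (0.0821) or HFDDSS 3 (0.0666).

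The opposite, periportal end of the lobule was followed in 18 genes, all tested. In the mean DSS effect 9 fell and 1 rose, against the same 11.2% and 8.72%. The gene that rose was Ctsc, whose call was lost in 9 of the 12 fits that left out 1 library (limma adjusted p up to 0.0787). It was also lost with no filter (0.0898) and with the replicate number as a block (0.0557). The falls included Etnppl (−1.98), Cyp2f2 (−0.93), the glutaminase gene Gls2 (−0.84), the histidase gene Hal (−0.79), the urea cycle gene Ass1 (−0.78) and the cadherin gene Cdh1 (−0.70). Cyp2f2 was at 460 to 601 FPKM in the untreated and 229 to 333 in the DSS libraries, without overlap. Cps1, the entry enzyme of the urea cycle, was at 445 to 976 and 548 to 791 FPKM and did not pass the test (limma adjusted p = 0.208). The median log2 fold change was −0.61 for the other pericentral list and −0.38 for the periportal list, against −0.0082 over all genes, and the difference between both lists was not tested.

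Glutamine synthetase stands in a wider set of genes for ammonia, glutamine, glutamate and ornithine, of which 26 of 35 were tested. In the mean DSS effect 11 fell and 1 rose, again against 11.2% and 8.72%. Gls2, whose enzyme releases ammonia from glutamine, had 114, 110 and 110.2 FPKM in CD 1 to 3, 66.8, 115 and 88.7 in HFD, 78.7, 70.5 and 66.0 in CDDSS, and 42.3, 41.3 and 41.8 in HFDDSS. HFDDSS was below all other groups, while CDDSS reached above HFD 1. Other falls were those of the proline oxidase gene Prodh (−0.91), Ass1 (−0.78), the aspartate aminotransferase gene Got1 (−0.64) and the ornithine decarboxylase gene Odc1 (−0.60). Asns, which encodes asparagine synthetase, was called higher (0.65, limma adjusted p = 0.0413), with −0.12 on CD and 1.42 on HFD. That call was lost without CD 2 (0.0931), CD 3 (0.072), HFD 2 (0.0973), HFD 3 (0.0882), CDDSS 1 (0.0515), CDDSS 2 (0.0729), CDDSS 3 (0.0878), HFDDSS 1 (0.0922) or HFDDSS 3 (0.062). Glud1, which encodes glutamate dehydrogenase, was at 298 to 365 FPKM without and 317 to 458 with DSS, and Slc38a3, a pericentral glutamine carrier gene, at 155 to 208 and 157 to 242. Neither passed the test (limma adjusted p = 0.266 and 0.499).

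Taken diet by diet, 3 of the 27 other pericentral genes fell with DSS on CD, and 6 fell and 1 rose on HFD. Over all tested genes 2.79% were called lower and 2.01% higher on CD, and 3.1% lower and 1.73% higher on HFD. Leaving out 1 library gave 0 calls in this list on CD without CD 3, CDDSS 2 or CDDSS 3, 1 without CD 1 or CD 2, and 8 without CDDSS 1. On HFD it gave 14 calls without HFDDSS 2, 2 without HFDDSS 1, 1 without HFD 2, HFD 3 or HFDDSS 3, and 7 without HFD 1. Cldn2, which encodes a tight junction protein, was the gene that rose on HFD (0.56, limma adjusted p = 0.0255). Its call was lost without HFD 2 (0.0897), HFD 3 (0.0731) or HFDDSS 3 (0.0701), with TPM scaling (0.0513), no filter (0.0552) and a fit of the compared groups alone (0.0842).

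Of the hepatocyte identity factors, Hnf4a, a nuclear receptor that maintains the hepatocyte programme, was the only 1 of 12 called in the mean DSS effect. That count is to be read against all tested genes, of which 8.72% were called higher and 11.2% lower. Hnf4a rose from 135 to 161 FPKM in the untreated to 198 to 263 in the DSS libraries, without overlap (log2 fold change 0.54, limma adjusted p = 0.00231).

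The tested genes most like Glul over the 12 libraries were taken by Pearson correlation of log2(FPKM + 1), leaving out clone and prediction names. The 5 were Tstd3 (r = 0.96), Rnf14 (0.957), Stard5 (0.949), Hsd3b3 (0.947) and Aspscr1 (0.944). Among the members, Oat (0.923), Slc1a2 (0.906), Lhpp (0.866), Lgr5 (0.865), Slc13a3 (0.82) and Rhbg (0.794) came closest. Cyp2e1 (0.669), Axin2 (0.379) and Tbx3 (−0.01) stood further off. Rank correlation (Spearman) gave another order, with Lgr5 at 0.979, Rnf14 at 0.965, Slc1a2 at 0.937, Tstd3 at 0.902 and Oat at 0.853. The 12 points fall into a DSS and an untreated cluster for Glul, so each value includes that split. The 5 genes changed far less than Glul: the largest fall on CD was that of Hsd3b3 (−1.17, limma adjusted p = 0.00432), from 29.4 to 12.7 FPKM on average, and Hsd3b3 has near-identical relatives.

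Some markers of other liver cells moved with DSS as well, where 11.2% of all tested genes were called lower and 8.72% higher. Of 12 tested markers of central vein and sinusoidal endothelium, 3 rose in the mean DSS effect and 0 fell: Thbd (0.81, limma adjusted p = 0.00112), Clec4g (0.36, 0.0114) and Lyve1 (0.39, 0.0347). The Lyve1 call was lost without CD 2 (0.0623), CD 3 (0.0754), HFD 1 (0.0633), HFD 2 (0.0739), HFDDSS 2 (0.0547) or HFDDSS 3 (0.0795). The summed level of all 14 was 90.3 to 99.3 FPKM in CD, 74.9 to 95.2 in HFD, 97.0 to 127 in CDDSS and 81.4 to 97.0 in HFDDSS. Of 12 Kupffer cell and macrophage markers 6 rose in the mean DSS effect, and their sum was 304 to 375 FPKM in CD, 297 to 479 in HFD, 340 to 622 in CDDSS and 403 to 590 in HFDDSS. The count for Kupffer cells was 2 without CD 2, CD 3, HFD 2, HFD 3, CDDSS 2, CDDSS 3, HFDDSS 1 or HFDDSS 3, 4 without CD 1, 11 without CDDSS 1 12 without the 3 intermediate libraries and 2 with the replicate number as a block. Limma called 0 of the 4 tested neutrophil markers (4 at an unadjusted p under 0.05, 0 with voom, and 4 without the 3 intermediate libraries). The sum of 7 neutrophil markers was 1.79 to 3.30, 1.91 to 24.7, 4.03 to 24.5 and 5.57 to 59.1 FPKM in the same order. In each of the 4 other lists 1 gene was called in the mean DSS effect, in all 12 fits that left out 1 library. Sox9, of 3 tested cholangiocyte markers, was at 1.37 to 1.94 FPKM without and 3.16 to 4.44 with DSS (0.92, limma adjusted p = 0.00013). Dcn, of 8 stellate cell and fibroblast markers, was at 17.5 to 28.5 FPKM without and 28.7 to 38.1 with DSS (0.55, 0.00634). Cd4, the 1 tested T and B cell marker, was at 0.941 to 1.77 FPKM without and 0.145 to 0.903 with DSS (−0.57, 0.00534). It passed the filter only through untreated libraries, where it was high. Alas2, of 5 erythroid markers, was at 44.0 to 57.1 FPKM without and 25.5 to 36.0 with DSS (−0.81, 0.00112). The part of these cells in the changes of the pericentral genes was not tested.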

How the data were processed

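Per the labels' protocols, a SMARTer mRNA-seq kit was used for the 12 liver libraries. The submitters' processing notes name mm10. For aligner, counter and their settings, nothing is given in the sources used here. The authors deposited 1 column of gene FPKM per library. Another 4 columns had neither name nor values and were not used. For each library, a scaling total was searched that brought the most values, multiplied by exon length, near whole fragment numbers. With that total, 97.0 to 97.3% of values under 500 fragments lay within 0.02 of a whole number. The search itself raised this share, so it is no separate check. The recovered fragments summed to the depth of 23.4 to 29.4 M, and voom used these fragments and totals.

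Values were analysed as log2(FPKM + 1), and fold changes are of FPKM + 1. Genes at 1 FPKM or more in 3 or more of the 12 libraries (10806 genes) were fitted in 1 linear model of 4 group means with limma 3.58.1 in R 4.3.3 (variance trend, two-sided tests, 8 residual degrees of freedom). P-values were adjusted over all genes tested (Benjamini-Hochberg, threshold 0.05). Groups came from the sample labels.

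The members, the 10 pathway and 8 marker lists and the tests were chosen with earlier results of these data known. Named are the members, up to 6 called genes per list and comparison with the largest changes, fixed pathway genes and the 5 genes most like Glul. Notum, Tbx3os1, Teddm2, Gm38392, Ctsc, Cyp3a11 between DSS groups and Hamp were added to that set after their values were seen. So were individual values of Cyp2a5. Alternatives were another pseudocount, 2 other filters, scaling by TPM, by median of ratios and by quantiles, fitting only the compared groups, a robust prior on the variance, weights for libraries, a block for the replicate number and leaving out each library. Fits without HFD 1, CDDSS 1 and HFDDSS 2 and voom on recovered fragments were added after seeing the data.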

Additional observations from a re-analysis of the deposited data

How the results depend on the processing

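The count of the 9 tested genes called was the same, or within 1.5 times, under all alternatives run except the following. With DSS on CD it was 2 in place of 4 with no filter, and 1 to 5 when a library was left out. With DSS on HFD it was 1 in place of 2 in a fit of the compared groups alone, and 0 to 2 when a library was left out. It was also 1 with a filter at a mean of 5 FPKM, where Rhbg, Axin2, Tbx3 and Slc13a3 were not tested. The mean DSS effect gave 5 to 6 calls when a library was left out, and the other comparisons 0 calls in every fit. Without HFD 1, CDDSS 1 and HFDDSS 2 the counts were 5 with DSS on CD, 3 with DSS on HFD and 5 for the mean effect.

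Signs turned in results near 0 that had not passed the test: Axin2 and Tbx3 with DSS, and Glul in HFD against CD. For Axin2 with DSS on HFD the log2 fold change was −0.062 with a pseudocount of 0.1 FPKM, −0.0085 with quantile normalisation, −0.084 with voom and −0.33 to 0.22 when a library was left out. On CD it was −0.33 to 0.098 when a library was left out, and for the mean effect 0.0038 with library weights and −0.22 to 0.058 when a library was left out. For Tbx3 with DSS on HFD it was 0.19 with library weights, 0.085 without the 3 intermediate libraries and −0.55 to 0.078 when a library was left out, and for the mean effect −0.045 to 0.31. For Glul in HFD against CD, 0.0042 became −0.0325 with TPM, −0.000512 with median-of-ratios and −0.0187 with quantile scaling, and −0.0608 to 0.0981 when a library was left out. The cause was not tested.

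The replicate numbers of the labels were tried as a block. Deviations of same-numbered libraries from their group means correlated at 0.064, 0.12 and 0.057 between CDDSS and CD. Between HFDDSS and HFD they correlated at 0.23, 0.26 and −0.16. Each CDDSS library correlated best with the CD library of its own number, as did HFDDSS 1 and 2 with those of HFD. Between HFD and CD and between HFDDSS and CDDSS no library did. Whether the numbers pair the libraries is not known, and the main fit did not use them. With the replicate block, 3 of the 9 genes were called with DSS on CD (Lhpp was lost), 2 on HFD and 6 for the mean effect.

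Over all genes, the 519, 522 and 2157 calls with DSS on CD, on HFD and as the mean became 157, 130 and 1514 with no filter, 2592, 2820 and 4259 with library weights, 290, 278 and 1836 with the replicate block, and 1924, 2027 and 3372 without the 3 intermediate libraries. The fit of the compared groups alone gave 220 and 122. Leaving out a library gave 63 to 1271, 9 to 879 and 1312 to 2664. Depth limits Rhbg, Lgr5 and Axin2, which rest on as few as 4, 6 and 40 fragments in a library. With no filter, mean-effect calls of other genes named were lost (limma adjusted p in brackets). They were Cyp7a1 (0.0596), Lect2 (0.0529), Gstm3 (0.0967), Rnf43 (0.0929), Dvl3 (0.0672), Ccnd1 (0.0563), Ctsc (0.0898), Asns (0.113), Hamp (0.0883) and Lyve1 (0.0906).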
